A study of Rattus norvegicus with 15 samples.

Results

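The response of rat kidney to 10 mg/kg cisplatin was compared between isolated proximal tubules and whole kidneys. The quantity of interest is the interaction: the change in tubules (10 mg/kg minus saline) minus the change in whole kidneys (10 mg/kg minus saline), each on the log2 scale of the array signal. A positive interaction means that the tubule change was the more positive of the pair. The comparison used 12 of the 15 arrays of the series, 3 in each of 4 groups: tubules after saline, tubules after 10 mg/kg cisplatin, whole kidneys after saline, and whole kidneys after 10 mg/kg cisplatin. The 3 arrays of tubules after 2 mg/kg have no whole kidney counterpart and stayed out of the fit. All animals were male Wistar/ST rats, 8 weeks old, and drug or saline was given into the peritoneum. The tubules were isolated under a microscope. The labels give neither the time from injection to sampling nor the segment from which the tubules came, and they do not say that each array comes from an animal of its own. The p-values therefore reflect the variation from array to array, which may be technical.

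Cisplatin is a platinum compound that cross-links DNA and is taken up from the blood by organic cation transport in the proximal tubule, where its toxicity to the kidney begins. The proximal tubule reabsorbs filtered glucose, phosphate, bicarbonate and amino acids, secretes organic anions, and makes glucose; its early part is called S1 and S2 and its straight part S3. A whole kidney holds these tubules together with glomeruli, vessels, distal segments and connective tissue. In such bulk samples fewer cells of a type and less RNA per cell cannot be told apart, and a change in whole kidneys is a mean over all its cells.

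Signals were measured on the 1-colour Rat Genome Survey array, quantile normalized over the 12 arrays and fitted with limma, and p-values were adjusted over 26647 probes by the Benjamini-Hochberg method with a threshold of 0.05. Array medians before normalization lay between 201.3 and 470.3 signal units. Arrays correlated at 0.861 to 0.931 within groups and at 0.767 to 0.906 between groups. The array of control whole kidney replicate 3 was the least like the rest (mean r of 0.818), and for some genes below values are also given without it. Changes and interactions below are differences on the log2 scale with the standard error of the fit (n = 3 arrays per group), and levels are normalized log2 signals. No background measure was available, so a fold is a ratio of signals and a dim probe is not known to be above background. A gene name could be given to 401 probes, all of them from a set of 1219 that the authors tabulated. How that set was chosen is unknown, and these samples may have been used for it, so counts over named genes are a description of that set.

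No probe passed the threshold for the interaction. The limma fit called 0 of 26647 probes (0%), and the lowest adjusted p was 0.0757. Before adjustment, p was under 0.05 for 2544 probes (9.55%). Of these 1219 had the more positive and 1325 the more negative change in tubules. Other ways of processing the same arrays called between 0 and 13 probes, and 154 within the authors' 1219. The standard error of the interaction had a median of 0.73 on the log2 scale over all probes, 0.79 in the dimmest of 4 equal groups of probes and 0.50 in the brightest. Statements below that a gene stood higher or lower in one tissue's response are therefore values with their errors, and no gene is called different between the tissues.

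Each tissue on its own responded. In tubules 510 probes rose (1.91%) and 699 fell (2.62%), and in whole kidneys 611 rose (2.29%) and 722 fell (2.71%). The pair of comparisons share no array. Rises and falls numbered 300 and 603 in tubules and 218 and 350 in whole kidneys with median centring, and 120 and 698, and 95 and 195, without scaling. Both tissues called 243 probes higher (0.912%) and 265 lower (0.994%), and 2 probes, neither with a gene name, were called in opposite directions. Of 699 probes called in tubules but not in whole kidneys 598 had the same sign in whole kidneys, and of 823 called in whole kidneys but not in tubules 674 had the same sign in tubules. A call in one tissue and not in the other is no test of a difference: the interaction had an unadjusted p under 0.05 for 351 and 474 of these probes, and for 59 of the 508 shared ones. Leaving out 1 array at a time gave 663 to 1261 calls in tubules, 707 to 1336 in whole kidneys and 297 to 390 in both. Without control whole kidney replicate 3, 811 probes were called in whole kidneys.

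Among the 401 named genes 40 rose and 168 fell in tubules, and 54 rose and 163 fell in whole kidneys. The shared changes numbered 31 rises and 88 falls, and 0 genes were called in opposite directions. The median change was -1.27 in tubules and -1.24 in whole kidneys, against 0.03 and 0.02 over all tested probes, and the median interaction was -0.07. For 163 named genes the interaction had an unadjusted p under 0.05, 72 with the more positive and 91 with the more negative change in tubules. That share lay above the 9.55% of all probes, in a set whose choice may have used these arrays.

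**Figure D1:**
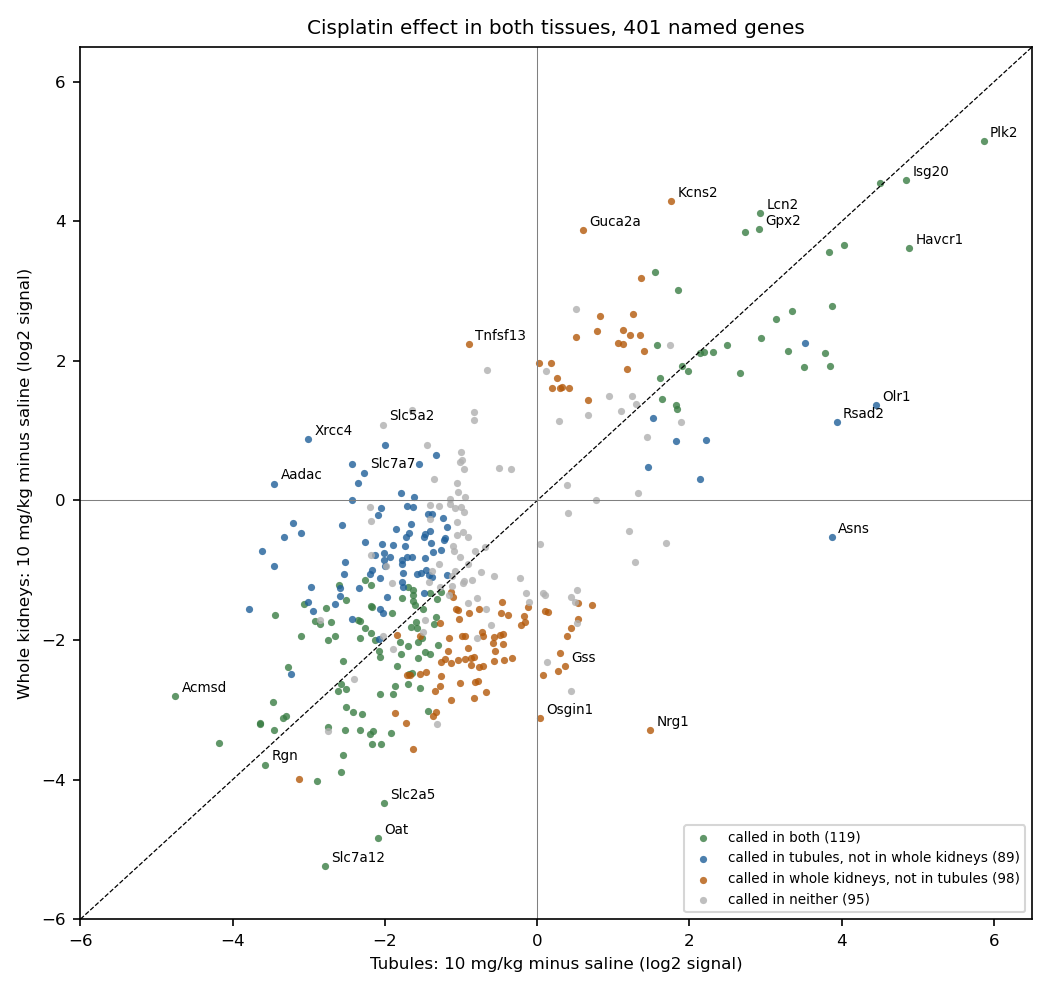
Each point is 1 of the 401 named genes, with its log2 change after 10 mg/kg cisplatin in tubules on the horizontal axis and in whole kidneys on the vertical axis. Colours mark the 119 genes called in both tissues, the 89 called in tubules and not whole kidneys, the 98 called in whole kidneys and not tubules, and the 95 called in neither; the dashed line marks equal change, and Asns and Nrg1 lie far below it.

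Asns and Nrg1 had the smallest interaction p among genes with more positive change in tubules. Asns encodes asparagine synthetase, which makes asparagine from aspartate and is a classical target of the amino acid response. Its log2 signal was 6.43, 5.71 and 6.55 in tubules after saline and 10.23, 9.99 and 10.07 after cisplatin, while whole kidneys stood at 8.20, 6.99 and 8.02 after saline and 7.64, 7.52 and 6.49 after cisplatin. The treated tubules lay above all 9 other arrays, and the whole kidney groups overlapped. Asns rose by 3.87 ± 0.43 in tubules, a 14.6-fold ratio of signals, and had -0.52 ± 0.43 in whole kidneys. The interaction was 4.38 ± 0.61 (limma adjusted p = 0.0757), and 4.28 with control whole kidney replicate 3 left out (limma adjusted p = 0.123). In control tubules Asns lay at the 3.68 percentile of signals, so the fold in tubules depends on a dim starting value. In tubules after 2 mg/kg, from a fit of all 15 arrays, Asns stood at 8.31, 8.30 and 7.21 against 6.41, 5.68 and 6.52 after saline, a difference of 1.73 ± 0.46 (limma adjusted p = 1).

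No other named member of the list of the integrated stress response and protein folding rose. Of 4 named genes 1 rose and 1 fell in tubules, and 0 rose and 1 fell in whole kidneys. Among all 401 named genes 40 rose and 168 fell in tubules, and 54 rose and 163 fell in whole kidneys. Over all probes the shares were 1.91% and 2.62%, and 2.29% and 2.71%. Psat1, an enzyme of serine synthesis that the same response induces in other settings, fell in both tissues, by 2.57 ± 0.37 and 2.63 ± 0.37 on the log2 scale, with an interaction of 0.06 ± 0.53. Hyou1, a chaperone of the endoplasmic reticulum, had -0.82 ± 0.43 in tubules and 1.15 ± 0.43 in whole kidneys. The cytosolic chaperone gene Hsph1 had -0.23 ± 0.38 and -1.10 ± 0.38.

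Nrg1 encodes neuregulin 1, a growth factor of the EGF family that binds ErbB receptors. It stood at 10.02, 10.10 and 8.87 in tubules after saline, 11.55, 10.47 and 11.41 after cisplatin, 10.25, 10.26 and 11.20 in whole kidneys after saline and 6.96, 6.78 and 8.12 after cisplatin. In neither tissue did the groups overlap, and they moved apart in opposite directions. In whole kidneys Nrg1 fell by 3.29 ± 0.50 on the log2 scale (limma adjusted p = 0.0041), while tubules had 1.48 ± 0.50 (limma adjusted p = 0.145). The interaction was 4.77 ± 0.71 (limma adjusted p = 0.0757), and 4.51 with control whole kidney replicate 3 left out (limma adjusted p = 0.167).

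Tnfsf13 showed the reverse pattern. It encodes APRIL, a ligand of the tumour necrosis factor family that sustains B cells and plasma cells. Its signal was 12.97, 13.14 and 13.16 in tubules after saline and 12.03, 12.08 and 12.48 after cisplatin, and in whole kidneys 11.45, 11.14 and 11.28 after saline and 14.14, 13.11 and 13.34 after cisplatin. Again the groups did not overlap in either tissue. Tnfsf13 rose in whole kidneys by 2.24 ± 0.34, and tubules had -0.89 ± 0.34 (limma adjusted p = 0.199), for an interaction of -3.13 ± 0.47 (limma adjusted p = 0.0757). With control whole kidney replicate 3 left out, the interaction of Tnfsf13 was -3.15 (limma adjusted p = 0.167). Over all probes the treated and control arrays did not overlap in either tissue, in opposite directions, for 285 probes (1.07%). A gene name was available for 6 of them. Nrg1 and Ppp1ca, a catalytic subunit of protein phosphatase 1, stood higher in treated tubules and lower in treated whole kidneys. Tnfsf13, Guca2b, the glypican gene Gpc3 and the adaptor gene Nedd9 did the opposite. Nedd9 was named after its values were seen.

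**Figure D2:**
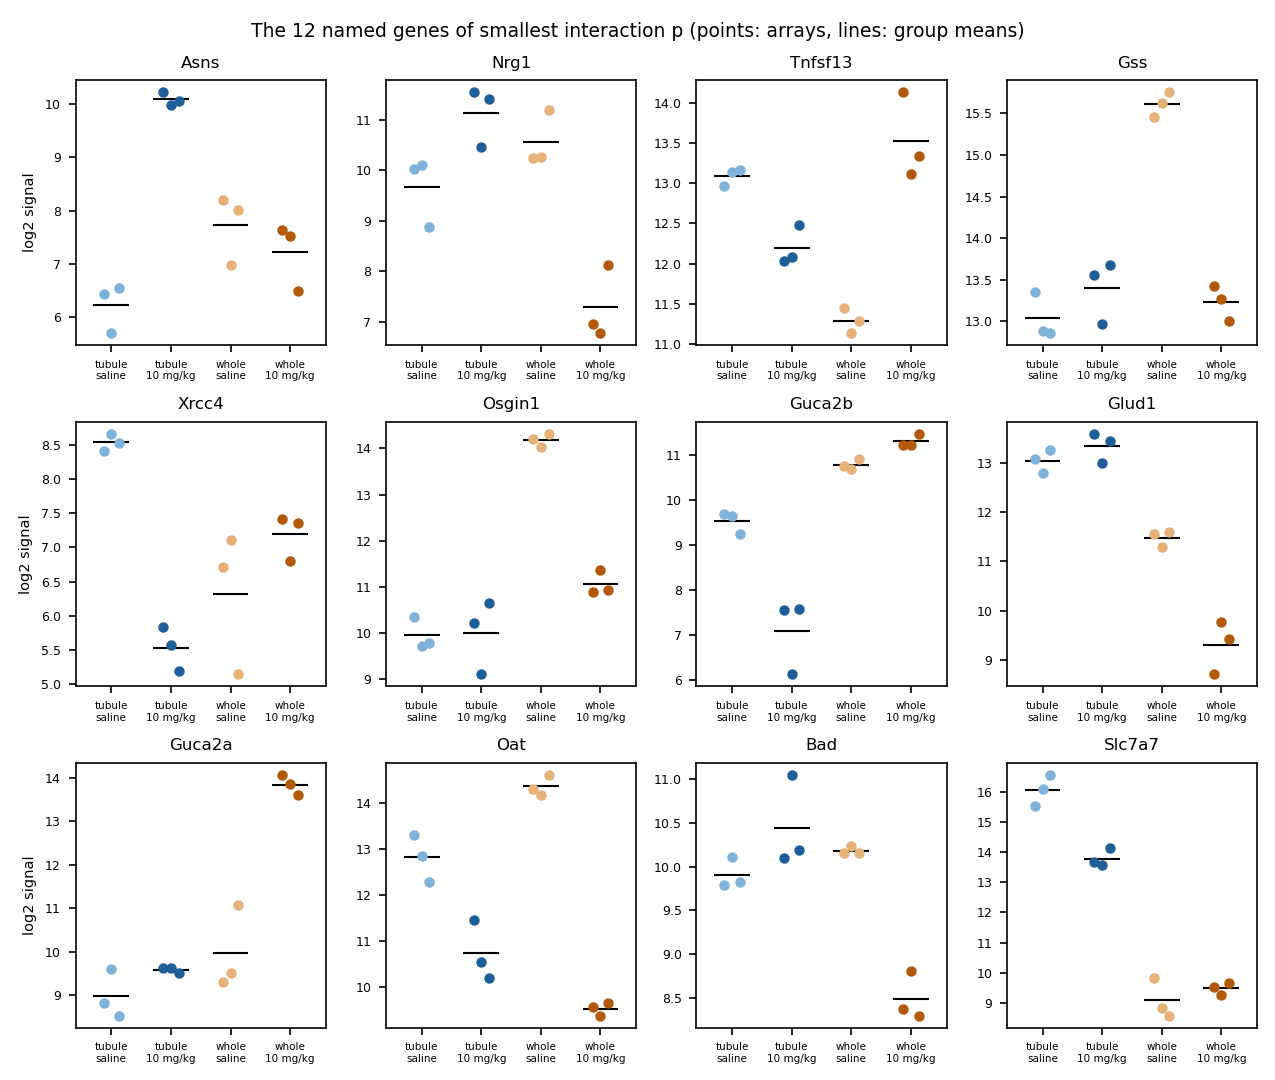
Log2 signal of the 12 named genes with the smallest interaction p, 1 panel per gene, with points for the 3 arrays of each group and lines for the group means. Asns is highest in the 3 treated tubule arrays, Gss and Osgin1 in the 3 control whole kidney arrays, and Guca2a in the 3 treated whole kidney arrays. No interaction among the 12 passed the adjusted threshold.

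Because no gene passed the interaction, the 24 genes of smallest interaction p were taken as examples after their values were seen. Guca2a and Guca2b, which encode guanylin and uroguanylin, peptides that act on guanylate cyclase C and promote salt excretion, both had a more negative change in tubules. Guca2a stood at 8.81, 9.61 and 8.52 in tubules after saline and 9.61, 9.63 and 9.52 after cisplatin. Whole kidneys stood at 9.30, 9.51 and 11.08 after saline and 14.06, 13.85 and 13.60 after cisplatin. The 3 treated whole kidneys lay above every other array. Guca2a rose in whole kidneys by 3.88 ± 0.46, against 0.60 ± 0.46 in tubules, with an interaction of -3.27 ± 0.66 (limma adjusted p = 0.176), and -3.87 with control whole kidney replicate 3 left out (limma adjusted p = 0.0991). Guca2b fell in tubules from 9.69, 9.65 and 9.24 to 7.56, 6.13 and 7.57, and stood at 10.74, 10.68 and 10.90 after saline and 11.20, 11.21 and 11.47 after cisplatin in whole kidneys. Its interaction was -2.95 ± 0.56 (limma adjusted p = 0.176).

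Xrcc4, the partner of DNA ligase IV in the joining of DNA ends, stood at 8.41, 8.67 and 8.53 in control tubules and 5.83, 5.57 and 5.18 in treated ones. In whole kidneys it stood at 6.72, 7.10 and 5.14 after saline and 7.42, 6.81 and 7.35 after cisplatin, where the groups overlapped. Xrcc4 fell in tubules by 3.01 ± 0.47 on the log2 scale, and its interaction was -3.88 ± 0.66 (limma adjusted p = 0.122). With control whole kidney replicate 3 left out, the lowest of the control whole kidneys, the interaction was -3.30 (limma adjusted p = 0.109). Treated tubules lay at the 0.101 percentile of signals and control whole kidneys at the 4.19 percentile, and neither level is known to be above background. Aadac, a microsomal esterase gene, fell in tubules by 3.45 ± 0.57 and had 0.24 ± 0.57 in whole kidneys.

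Among the same genes, enzymes and receptors had values of either sign. Glud1, the glutamate dehydrogenase gene, fell in whole kidneys by 2.18 ± 0.35 and had a positive value of 0.30 ± 0.35 in tubules, with an interaction of 2.48 ± 0.50. Oat, which encodes ornithine aminotransferase, fell in both tissues, by 2.09 ± 0.39 in tubules and 4.84 ± 0.39 in whole kidneys, with an interaction of 2.75 ± 0.56. Dio1, the type 1 deiodinase that activates thyroid hormone, fell by 3.45 ± 0.29 in tubules and 1.64 ± 0.29 in whole kidneys. Olr1, an oxidised LDL receptor gene, rose in tubules by 4.45 ± 0.51 and had 1.37 ± 0.51 in whole kidneys. The proapoptotic gene Bad fell in whole kidneys by 1.69 ± 0.34 and had a positive value of 0.54 ± 0.34 in tubules, with an interaction of 2.23 ± 0.47.

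Most named genes of glutathione and of the Nrf2 response fell in whole kidneys; the interaction of each failed the adjusted threshold. Nrf2 is a transcription factor that induces antioxidant and glutathione genes. Of 7 named members 1 rose and 5 fell in whole kidneys, while 1 rose and 1 fell in tubules. The interaction was above 0 in 6 of 7, and 3 of 7 had an unadjusted p under 0.05. The median interaction was 1.20, against -0.07 among the 401 named genes and 0.01 over all probes. This list too was written with earlier results of these data known, so its counts only describe it. Among all 401 named genes 163 fell in whole kidneys and 163 had an interaction with an unadjusted p under 0.05, against 2.71% and 9.55% of all probes, so the count of 3 of 7 is near that of the named genes as a whole. Gss, which encodes the enzyme of the last step of glutathione synthesis, stood at 13.36, 12.89 and 12.86 in tubules after saline and 13.55, 12.97 and 13.68 after cisplatin. In whole kidneys it was 15.45, 15.63 and 15.75 after saline and 13.43, 13.28 and 13.01 after cisplatin. Control whole kidneys stood above all other arrays, and the other 3 groups overlapped. Gss fell in whole kidneys by 2.37 ± 0.32, with an interaction of 2.74 ± 0.45 (limma adjusted p = 0.112), and 2.66 with control whole kidney replicate 3 left out (limma adjusted p = 0.214).

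Osgin1, a growth inhibitor gene induced by oxidative stress, had the same shape. Tubules stood at 10.34, 9.71 and 9.79 after saline and 10.21, 9.10 and 10.66 after cisplatin, and whole kidneys at 14.20, 14.04 and 14.32 after saline and 10.89, 11.36 and 10.94 after cisplatin. Osgin1 fell in whole kidneys by 3.12 ± 0.41 and had a positive value of 0.04 ± 0.41 in tubules (interaction 3.17 ± 0.57, limma adjusted p = 0.16). Tubules minus whole kidneys gave -4.24 ± 0.41 for Osgin1 and -2.57 ± 0.32 for Gss after saline, and -1.07 ± 0.41 (limma adjusted p = 0.138) and 0.17 ± 0.32 (limma adjusted p = 0.83) after cisplatin. Gstt2 and Gsr, which encode a glutathione transferase and glutathione reductase, fell in whole kidneys by 2.38 ± 0.44 and 2.33 ± 0.48, with interactions of 1.62 ± 0.62 and 1.20 ± 0.68. Gsta2 fell in both tissues. Gpx2, a glutathione peroxidase gene, rose in both, by 2.92 ± 0.34 and 3.89 ± 0.34, opposite in sign to the members that fell.

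Markers of the early proximal tubule were among the genes with the more negative values in tubules. Of 8 named S1 and S2 markers 7 fell in tubules and 3 in whole kidneys. Among all 401 named genes 168 fell in tubules and 163 in whole kidneys, against 2.62% and 2.71% of all probes. The interaction was below 0 in 7 markers, with a median of -1.61 against -0.07 among the 401 named genes. An unadjusted p under 0.05 was found in 7, which include Slc7a9 with a positive interaction and leave out Gatm. Of the 401 named genes 163 had such a p. The list was written with earlier results of these data known, so its counts only describe it. Slc5a2, the sodium-glucose cotransporter SGLT2, stood at 16.30, 16.71 and 16.97 in control tubules and 14.76, 14.83 and 14.33 in treated ones, and in whole kidneys 7.72, 7.44 and 8.91 after saline and 7.19, 9.42 and 10.72 after cisplatin. Tubules lay above whole kidneys in every array, by 8.64 ± 0.72 after saline, and control whole kidneys lay at the 51.8 percentile of signals. Slc5a2 was called in neither tissue, at -2.02 ± 0.72 in tubules and 1.09 ± 0.72 in whole kidneys, with an interaction of -3.11 ± 1.01 (limma adjusted p = 0.378).

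Slc7a7, the basolateral exporter of cationic amino acids, fell in tubules by 2.28 ± 0.40 and had 0.40 ± 0.40 in whole kidneys, after a control difference of 6.99 ± 0.40. The bicarbonate cotransporter gene Slc4a4 fell in tubules by 1.55 ± 0.40 and had 0.52 ± 0.40 in whole kidneys, after a control difference of 5.28 ± 0.40. The phosphate transporter gene Slc34a1 fell in tubules by 2.13 ± 0.30, and Slc22a6, the organic anion transporter OAT1, by 2.52 ± 0.39, while both were not called in whole kidneys (-0.79 ± 0.30 and -0.89 ± 0.39). Spp2 fell in both tissues, by 3.07 ± 0.38 and 1.48 ± 0.38. The exceptions were Slc7a9, the apical cystine carrier, which fell in both tissues (-1.43 ± 0.37 in tubules and -3.01 ± 0.37 in whole kidneys), and the creatine synthesis gene Gatm, which fell in both tissues (interaction -0.17 ± 0.71, 95% interval -1.71 to 1.37).

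Of 5 listed markers of S3 3 were named, and they gave a median interaction of 1.15 against -0.07 among the 401 named genes. The interaction was above 0 in Slc22a7 and Slc3a1 and was -0.45 ± 0.96 in Gc. Only Slc22a7 had an unadjusted p under 0.05. Slc22a7, the organic anion transporter OAT2, fell in whole kidneys by 2.84 ± 0.53 and had -0.83 ± 0.53 in tubules, with an interaction of 2.01 ± 0.75 (limma adjusted p = 0.437). After saline its level in tubules minus whole kidneys was -3.24 ± 0.53. Slc3a1, the partner chain of the cystine carrier, fell in both tissues, by 2.15 ± 0.37 and 3.30 ± 0.37. Gc, which encodes the carrier of vitamin D in plasma, fell in both as well, by 3.65 ± 0.68 and 3.20 ± 0.68; its call in whole kidneys was lost in 4 of the fits that left out an array, without control whole kidney replicate 1, 2 or 3 or without treated replicate 1 (limma adjusted p = 0.0532 to 0.0715). The part of the control differences in the interactions was not tested. Markers of podocytes, endothelium, thick ascending limb, distal tubule, collecting duct, stroma and erythroid cells had 0 named probes. The leukocyte markers C1qa and C1qc, subunits of complement C1q, were called in neither tissue, with a median change of 1.39 in whole kidneys and 1.02 in tubules.

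**Figure D3:**
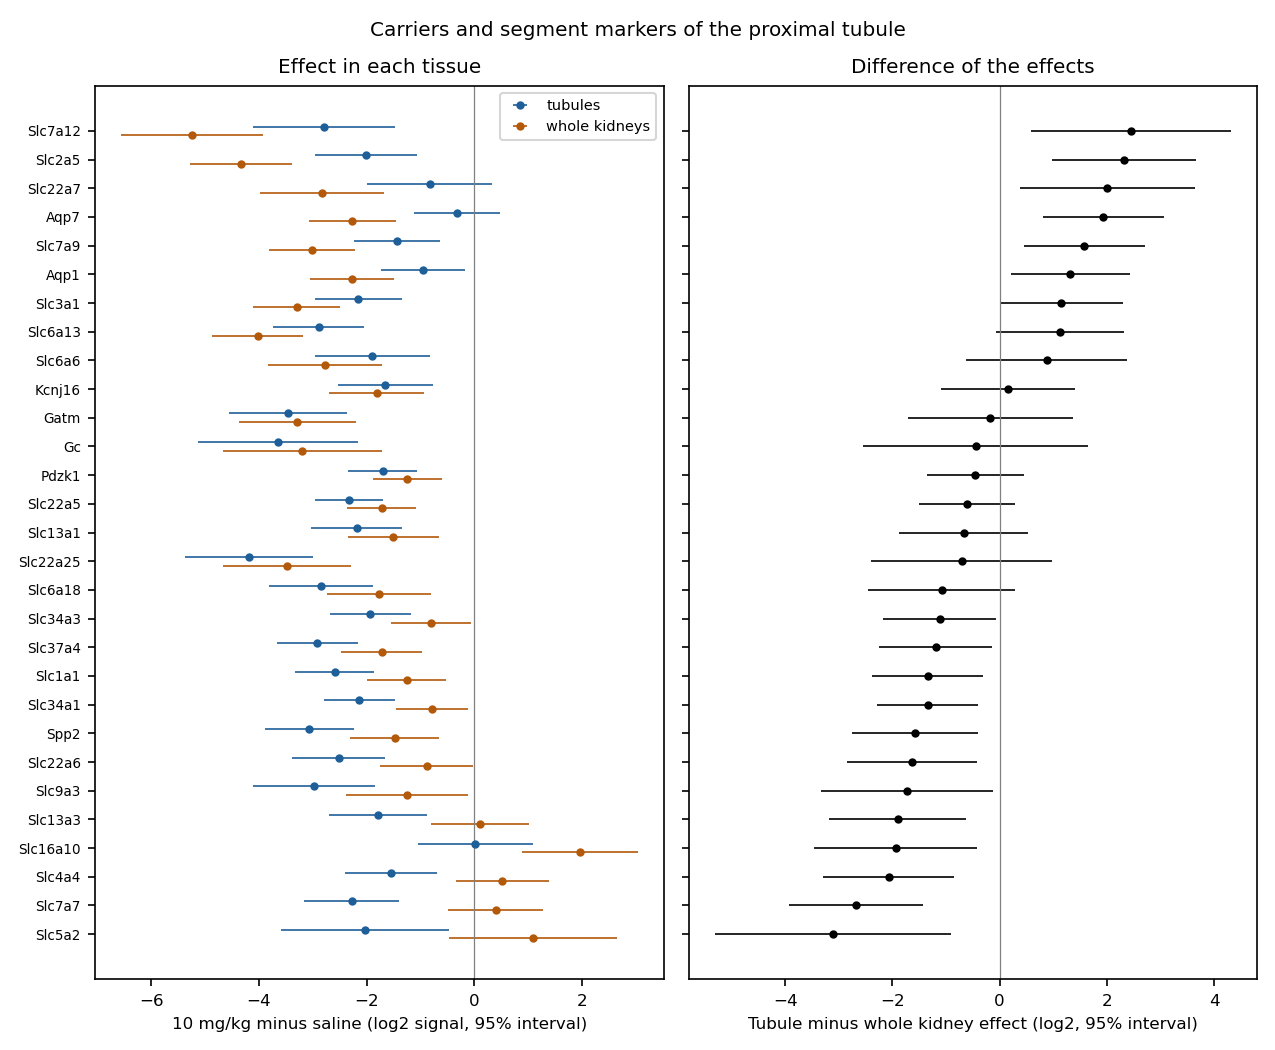
Changes of the named carriers and segment markers, with 1 row per gene sorted by interaction; the left panel gives the log2 change in tubules and in whole kidneys and the right panel the interaction, each with its 95% interval. Slc5a2 and Slc7a7 lie at the negative end, at -3.11 and -2.68, and Slc7a12 and Slc2a5 at the positive end, at 2.45 and 2.32.

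Most of the named solute carriers fell in tubules and a smaller number in whole kidneys, and their interactions ran in either direction. Of 9 amino acid transporters 8 fell in tubules and 6 in whole kidneys, 6 of them in both, and 1 rose in whole kidneys. Among all 401 named genes 168 fell in tubules, 163 in whole kidneys and 88 in both. Over all probes the shares were 2.62%, 2.71% and 0.994%. Counts of falls in this list and the lists below are to be read against these numbers. A count near the share of the named genes describes that set and not the list. Slc7a12 fell by 2.79 ± 0.61 in tubules and 5.24 ± 0.61 in whole kidneys. Slc1a1, the glutamate transporter EAAC1, fell by 2.60 ± 0.34 in tubules and had -1.26 ± 0.34 in whole kidneys. The aromatic amino acid transporter gene Slc16a10 was the one that rose in whole kidneys, by 1.97 ± 0.49, against 0.02 ± 0.49 in tubules.

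Of 8 carriers of phosphate, sulfate, dicarboxylate and sugars 7 fell in tubules and 4 in whole kidneys, and 7 of 8 interactions were below 0. The fructose transporter gene Slc2a5 was the exception, falling by 2.01 ± 0.43 in tubules and 4.33 ± 0.43 in whole kidneys (interaction 2.32 ± 0.61). The median interaction of the list was -1.16, against -0.07 among the 401 named genes and 0.01 over all probes. Lists share members, so they are not independent. Slc5a2 and Slc34a1, for instance, are also among the S1 and S2 markers, and Slc37a4 is also in the gluconeogenesis list. The dicarboxylate carrier gene Slc13a3 fell by 1.80 ± 0.42 in tubules and had 0.11 ± 0.42 in whole kidneys. Of 4 organic ion transporters 3 fell in each tissue. Slc22a5, the carnitine transporter OCTN2, fell by 2.33 ± 0.29 in tubules and 1.72 ± 0.29 in whole kidneys.

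Of 5 genes of bicarbonate, proton and water transport 3 fell in each tissue. The water channel genes Aqp1 and Aqp7 fell in whole kidneys, by 2.27 ± 0.36 and 2.26 ± 0.37, and stood at -0.95 ± 0.36 and -0.33 ± 0.37 in tubules. The proton exchanger gene Slc9a3 fell in tubules, by 2.98 ± 0.52, and stood at -1.24 ± 0.52 in whole kidneys. All 3 endocytic and brush border genes fell in both tissues: Cubn, the endocytic receptor cubilin, by 2.58 ± 0.41 and 3.89 ± 0.41, Anpep, an aminopeptidase, by 2.75 ± 0.35 and 1.99 ± 0.35, and Folr1, the folate receptor, by 1.69 ± 0.37 and 2.48 ± 0.37.

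Many metabolic genes fell in both tissues. Of 20 genes of amino acid, amine and creatine catabolism 16 fell in tubules and 14 in whole kidneys, 12 of them in both, with a median interaction of -0.57 and 7 with an unadjusted p under 0.05. Among all 401 named genes the falls numbered 168, 163 and 88, the median interaction was -0.07, and 163 had such a p. Ddc, which makes dopamine in the tubule, fell by 2.56 ± 0.50 in tubules and had -0.36 ± 0.50 in whole kidneys. Miox, the first enzyme of inositol breakdown, fell by 2.77 ± 0.33 and 1.54 ± 0.33, and Dpys, an enzyme of pyrimidine breakdown, by 2.60 ± 0.31 and 1.21 ± 0.31. Of 5 gluconeogenesis genes 4 fell in tubules and 3 in whole kidneys. Pc, pyruvate carboxylase, fell by 3.79 ± 0.44 in tubules and had -1.56 ± 0.44 in whole kidneys, and Fbp1, fructose bisphosphatase, fell by 2.52 ± 0.35 and 3.29 ± 0.35.

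Of 5 genes of fatty acid oxidation 3 fell in each tissue. Acsm2, an acyl-CoA synthetase gene, fell by 2.53 ± 0.30 in tubules and had -1.06 ± 0.30 in whole kidneys, and Cyp4a8, a fatty acid hydroxylase gene, had -1.36 ± 0.49 in tubules and fell by 3.09 ± 0.49 in whole kidneys. Of 8 xenobiotic metabolism genes 5 fell in tubules and 4 in whole kidneys, and 6 interactions were below 0. Their median interaction was -0.64, against -0.07 among the 401 named genes. Of 4 genes of the mitochondrial respiratory chain list 2 fell in tubules and 0 in whole kidneys. Ndufs1, a subunit of complex I, fell in tubules with -1.53 ± 0.32 and stood at -1.04 ± 0.32 in whole kidneys. Of 3 genes of the membrane skeleton 1, Add3 (an adducin), fell in tubules and 0 in whole kidneys.

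Of 8 genes of the hormone axis list, which holds Nrg1 and Guca2a, 5 fell in tubules, and 1 rose and 4 fell in whole kidneys. The receptor genes Thrb, for thyroid hormone, and Agtr1a, for angiotensin II, fell in tubules, by 3.46 ± 0.45 and 2.36 ± 0.53, and stood at -0.94 ± 0.45 and 0.25 ± 0.53 in whole kidneys. Their interactions were -2.52 ± 0.64 and -2.61 ± 0.75 (limma adjusted p = 0.27 and 0.319). Pth1r, the parathyroid hormone receptor gene, fell in both, by 2.70 ± 0.39 and 1.75 ± 0.39.

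Most injury genes rose in both tissues. Of 8 named markers of injury and dedifferentiation 7 rose in tubules and 8 in whole kidneys, 7 of them in both, and 2 had an interaction with an unadjusted p under 0.05. Among all 401 named genes 40 rose in tubules, 54 in whole kidneys and 31 in both, and 163 had such a p. Over all probes the shares of rises were 1.91%, 2.29% and 0.912%. Counts of rises in this list and the lists below are to be read against these numbers. The lists were written with earlier results of these data known, so their counts only describe them. Havcr1, which encodes the injury protein KIM-1, stood at 8.75, 9.41 and 7.92 in tubules after saline and 13.68, 13.20 and 13.87 after cisplatin, and in whole kidneys 9.05, 8.92 and 8.33 after saline and 12.71, 12.49 and 11.96 after cisplatin. Treated arrays lay above control arrays in both tissues, and treated tubules above treated whole kidneys. Havcr1 rose by 4.89 ± 0.42 in tubules and 3.62 ± 0.42 in whole kidneys, with an interaction of 1.27 ± 0.60 and a 95% interval of -0.03 to 2.57.

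Lcn2, which encodes the iron-carrier binding protein NGAL, was 8.16, 8.03 and 6.80 in tubules after saline and 10.18, 9.94 and 11.66 after cisplatin. Whole kidneys stood at 8.32, 8.95 and 9.51 after saline and 13.21, 12.73 and 13.18 after cisplatin. Treated whole kidneys lay above all other arrays. The rise was 2.93 ± 0.53 in tubules and 4.12 ± 0.53 in whole kidneys, and the 95% interval of the interaction ran from -2.81 to 0.44. S100a10, a partner of annexin A2, rose by 3.79 ± 0.35 and 2.11 ± 0.35. Anxa1, an annexin gene, rose by 2.43 ± 0.44 in whole kidneys and stood at 0.78 ± 0.44 in tubules. Spp1, which encodes osteopontin, rose by 3.13 ± 0.61 and 2.59 ± 0.61.

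The largest shared rise by the smaller of both changes was in Plk2, a polo-like kinase gene that p53 induces. It stood at 8.88, 8.03 and 8.55 in tubules after saline and 14.26, 14.23 and 14.57 after cisplatin. Whole kidneys stood at 9.37, 9.40 and 6.93 after saline and 13.43, 13.98 and 13.76 after cisplatin. No treated array overlapped a control array. Plk2 rose by 5.87 ± 0.57 and 5.16 ± 0.57, and the interaction had a 95% interval of -1.05 to 2.47. Without control whole kidney replicate 3, the lowest of the controls, the rise in whole kidneys was 4.38 and the interaction 1.54 (limma adjusted p = 0.422). Among genes with a value on all 12 arrays, Isg20, S100a6, Havcr1, Hbegf, an EGF receptor ligand gene, and Lcn2 followed in that order; Ccl20, with 10 values, was left out of this ranking and is given below. The intervals were -1.12 to 1.64 for Isg20, -1.10 to 1.86 for S100a6 and -0.93 to 1.48 for Hbegf. These intervals hold 0 and also differences of more than 1 on the log2 scale, so equal responses were not shown. The p53 target Cdkn1a, which encodes the cell cycle inhibitor p21, rose by 3.88 ± 0.54 and 2.79 ± 0.54, and of 3 named p53 targets 2 rose in both.

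The largest shared falls by the same rule were in Rgn, Slc22a25, Gatm, Gc, Hnmt and Galnt11. Rgn, a calcium-binding gluconolactonase, stood at 13.12, 11.93 and 11.43 in tubules after saline and 9.23, 8.77 and 7.75 after cisplatin. Whole kidneys stood at 14.63, 14.93 and 14.83 after saline and 10.66, 11.07 and 11.30 after cisplatin. Treated arrays lay below control arrays in both tissues. It fell by 3.58 ± 0.48 and 3.79 ± 0.48, and the interaction had a 95% interval of -1.27 to 1.69. Hnmt, which methylates histamine, fell by 3.64 ± 0.58 and 3.19 ± 0.58, and Slc22a25 by 4.19 ± 0.55 and 3.48 ± 0.55.

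**Figure D4:**
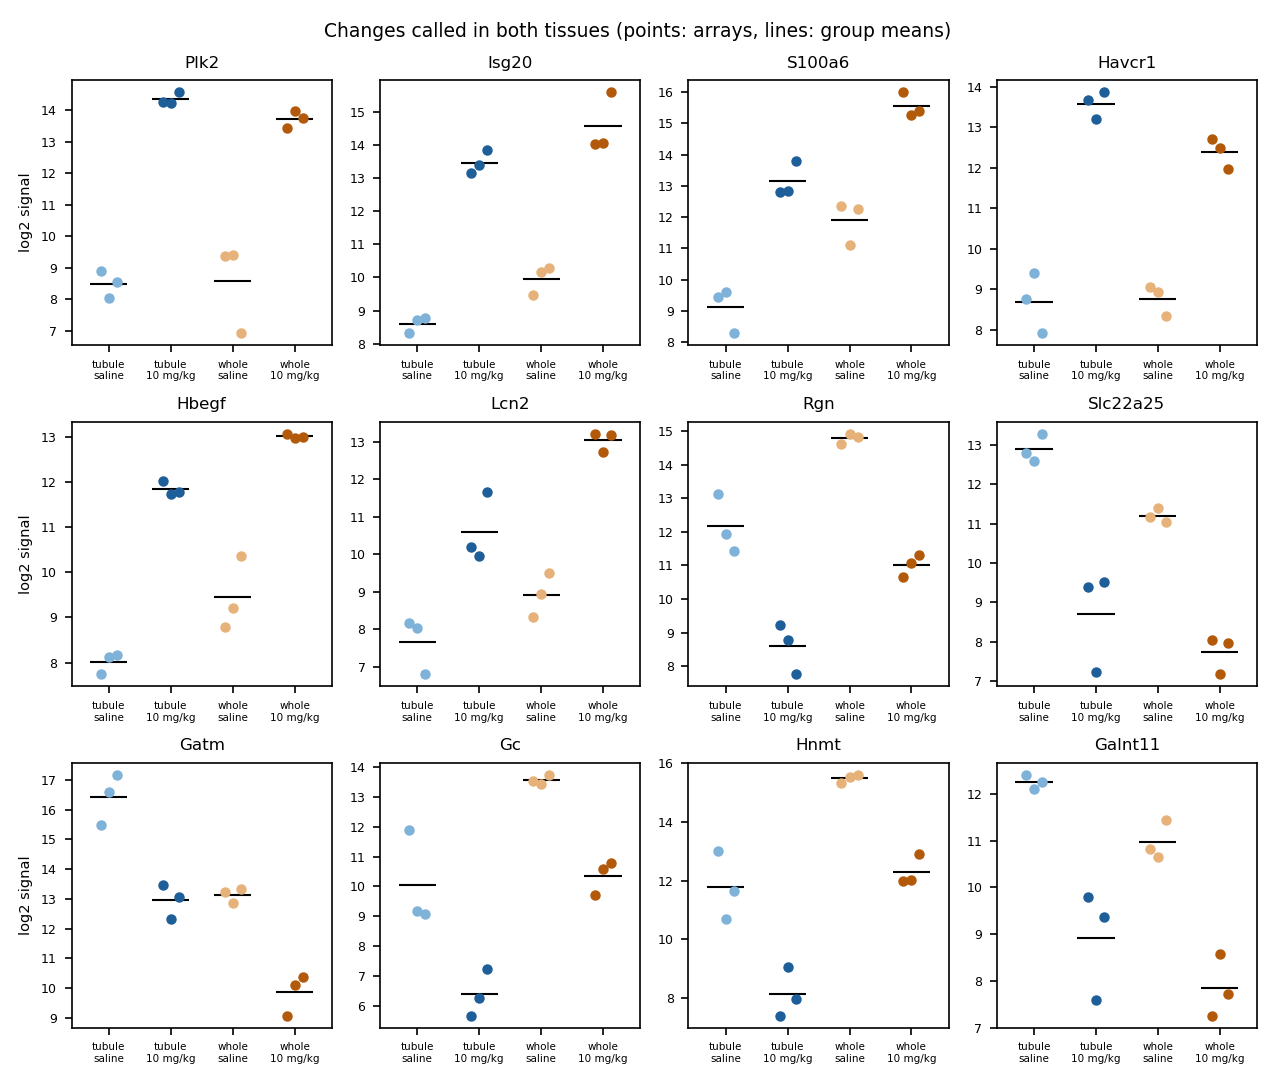
Log2 signal of the 6 rises and 6 falls called in both tissues with the largest smaller change among named genes that had all 12 values (Ccl20, with 10 values, is not shown), 1 panel per gene, with points for the 3 arrays of each group and lines for the group means. In all 12 panels treated and control arrays of the same tissue do not overlap, and the levels of Rgn, Gc and Hnmt are higher in whole kidneys than in tubules. The genes were picked by the size of these same changes, so the separation follows largely from the choice. Over all 26647 probes 2357 were separated in the same direction in both tissues.

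Interferon genes and chemokines rose in one or both tissues. Of 3 interferon-stimulated genes 3 rose in tubules and 2 in whole kidneys, and of 3 chemokines 3 rose in tubules and 2 in whole kidneys. Among all 401 named genes 40 rose in tubules and 54 in whole kidneys, against 1.91% and 2.29% of all probes. To show the upstream sequence of interferon and chemokine genes, the 250 bases before the start site are printed for 4 of them. The sequences are from RefSeq on assembly GRCr8, 5′ to 3′ along the gene, with matches to 1 motif in capitals. For the interferon genes Isg20 (chr1:142239809-142240058, plus strand) and Rsad2 (chr6:48788121-48788370, minus strand), capitals mark GAAANNGAA or its reverse complement, an interferon response pattern.

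Isg20: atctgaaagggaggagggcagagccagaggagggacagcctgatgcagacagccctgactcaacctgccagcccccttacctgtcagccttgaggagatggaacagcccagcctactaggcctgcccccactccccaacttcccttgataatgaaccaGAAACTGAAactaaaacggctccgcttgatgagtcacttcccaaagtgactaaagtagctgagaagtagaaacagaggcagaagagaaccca

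Rsad2: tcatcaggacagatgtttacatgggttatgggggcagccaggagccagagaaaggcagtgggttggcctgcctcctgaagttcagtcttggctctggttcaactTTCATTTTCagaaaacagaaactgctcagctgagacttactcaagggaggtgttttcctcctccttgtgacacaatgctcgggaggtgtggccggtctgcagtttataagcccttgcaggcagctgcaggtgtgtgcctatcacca

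For the chemokine genes Ccl20 (chr9:91836909-91837158, plus strand) and Cxcl2 (chr14:17467256-17467505, minus strand), capitals mark GGGNNTTTC or its reverse complement, an NF-kappa-B pattern.

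Ccl20: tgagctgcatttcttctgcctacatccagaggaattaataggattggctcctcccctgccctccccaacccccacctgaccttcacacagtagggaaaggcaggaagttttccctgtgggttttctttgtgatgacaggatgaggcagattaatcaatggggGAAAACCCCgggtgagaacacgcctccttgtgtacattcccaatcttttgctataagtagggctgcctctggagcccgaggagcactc

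Cxcl2: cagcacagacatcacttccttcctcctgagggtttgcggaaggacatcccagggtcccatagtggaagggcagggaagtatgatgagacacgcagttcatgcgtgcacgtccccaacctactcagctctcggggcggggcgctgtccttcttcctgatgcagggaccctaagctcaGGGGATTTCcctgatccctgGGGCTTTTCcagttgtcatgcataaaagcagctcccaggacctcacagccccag

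The first pattern was found, on either strand, in 2 of 3 interferon genes, in Isg20 at -92 and in Rsad2 at -146, and not in Irf1, against 8.12% of 33469 rat promoters of the same length. The second was in 2 of 2 chemokine genes with a promoter, in Ccl20 at -88 and in Cxcl2 at -74 and -54, against 3.7%. The pattern TGATGNAA of the amino acid response was in 0 of 4 stress genes, against 3.4%, and the antioxidant response pattern TGACNNNGC was in 1 of 5 Nrf2 and glutathione genes with a promoter, Gpx2, against 10.1%. These letter matches were chosen after several other patterns had been looked at, and they are descriptions of the sequence, not binding sites. The first and second patterns were also shortened by 1 letter after a search with the longer forms. Their counts beside the shares of all promoters are therefore no test of enrichment.

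Isg20, an interferon-induced exonuclease, rose by 4.85 ± 0.45 in tubules and 4.59 ± 0.45 in whole kidneys. Rsad2, which encodes the antiviral protein viperin, stood at 7.01, 7.41 and 8.23 in tubules after saline and 11.21, 11.64 and 11.60 after cisplatin. Whole kidneys stood at 6.83, 7.49 and 8.90 after saline and 8.95, 9.57 and 8.08 after cisplatin. Rsad2 rose in tubules by 3.93 ± 0.55 and had 1.13 ± 0.55 in whole kidneys, with an interaction of 2.81 ± 0.78 (limma adjusted p = 0.299). With control whole kidney replicate 3 left out, the interaction of Rsad2 was 2.26 (limma adjusted p = 0.396). Irf1, a transcription factor of the interferon response, rose by 2.67 ± 0.34 and 1.83 ± 0.34.

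Ccl20, which attracts dendritic and T cells, had values on 10 arrays, with replicate 1 missing in both whole kidney groups. It rose by 4.50 ± 0.47 and 4.55 ± 0.58. Cxcl2, which attracts neutrophils, rose by 2.94 ± 0.59 and 2.32 ± 0.59. Ccl2, which attracts monocytes, rose by 3.51 ± 0.72 in tubules and stood at 2.26 ± 0.72 in whole kidneys (limma adjusted p = 0.102), with an interaction of 1.25 ± 1.02. Of 3 immediate early genes 2 rose in tubules and 3 in whole kidneys. Egr2 rose by 2.73 ± 0.62 and 3.85 ± 0.62, Klf6 by 2.31 ± 0.31 and 2.13 ± 0.31, and Ier3 by 2.67 ± 0.38 in whole kidneys, against 1.26 ± 0.38 in tubules. The list of apoptosis and the TNF family had 2 named genes and did not hold Tnfsf13 and Bad, which are given above. Of its 2 genes Tnfrsf1a, the receptor of TNF, rose in both tissues. Aifm1, a mitochondrial oxidoreductase gene, fell in tubules by 1.47 ± 0.31 and stood at -0.82 ± 0.31 in whole kidneys.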

How the data were processed

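Gene expression was measured on 1-colour chemiluminescent arrays, and 12 arrays in 4 groups were used. Each deposited array file lists probes with 1 linear intensity value each, per the file headers; the labels give no background correction, filter or genome build. The authors' deposited series table of 1219 probes holds a ratio, each signal over 1 constant per array, and was used as an alternative. Intensities were taken to log2, quantile normalized and fitted with limma 3.58.1 in R 4.3.3, with 1 mean per group and Benjamini-Hochberg adjustment over 26647 probes with at least 2 values per group (210 left out). The fit had 8 residual and 3.96 prior degrees of freedom. It was run on simulated data with independent normal noise, which checked only the mean size of the recovered interactions. That simulation set no check on false calls and held no effects shared by a whole array. No dim probes were filtered, and the number of arrays limits the precision.

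Named genes are the 401 probes with 1 symbol in the platform annotation, all matched to RefSeq GRCr8. The rule named the genes past the interaction threshold (0), the 6 rises and 6 falls shared with the largest smaller change among the 399 genes with all 12 values (which leaves out Ccl20), up to 4 of smallest interaction p per list, and 11 fixed genes; the 24 of smallest interaction p were added after values were seen. Members and the 30 gene lists (117 of 465 genes named) were chosen with earlier results of these data known. Alternatives were other scalings, an offset of 50 signal units, array weights, filters, all 15 arrays, a replicate block, the series table and leaving out arrays. Promoter patterns were chosen after several were scanned, and the interferon and NF-kappa-B patterns were shortened by 1 letter after a search with the longer forms.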

Additional observations from a re-analysis of the deposited data

How the results depend on the processing

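The interaction called 0 of 26647 probes in the limma fit as designed, 0 with probes that had all 12 values, 0 with a replicate block (smallest adjusted p 0.203) and 0 in each of 12 fits that left out 1 array (smallest adjusted p 0.0833 to 0.219). It called 2 with median centring, 2 without scaling, 8 with array weights, 10 with all 15 arrays fitted, 13 with an offset of 50 signal units and 13 among probes above the median signal. With the authors' deposited series table of 1219 probes it called 154, 40 positive and 114 negative, at a median interaction of -0.486; without scaling the median over all probes was -0.284. Among named genes Asns passed with median centring, 15 arrays, the offset and array weights, Nrg1 with 15 arrays, the offset, array weights and the brighter probes, Tnfsf13 with 15 arrays, the offset and the brighter probes, and Gss with the offset and the brighter probes (limma adjusted p = 0.0194 to 0.0494). With the series table these genes passed as well (limma adjusted p = 6.4e-05 to 0.0155). Other named genes passed there too, among them Xrcc4, Aadac and Guca2a. Asns was too dim to be tested among the brighter probes. The cause of these calls was not tested; the brighter-probe setting tests 13420 probes. Whether replicate numbers pair the arrays is not known. Deviations of same-numbered arrays from their group means correlated at -0.0798 to 0.135, with a median of 0.0148. Those of other pairs correlated at -0.16 to 0.0828, with a median of -0.00108. With 3 arrays per group, these overlapping ranges cannot decide it. The 1209 calls in tubules became 2028 among brighter probes and 940 with the replicate block, and 663 to 1261 without 1 array, with 765 and 663 without control tubule replicate 2 or 3 and 771, 747 and 752 without treated tubule replicate 1, 2 or 3. The 1333 calls in whole kidneys became 568 with median centring, 290 without scaling, 2272 among brighter probes, 733 with the series table, 965 with the replicate block, and 707 to 1336 without 1 array, with 831, 707 and 811 without control replicate 1, 2 or 3 and 867 and 733 without treated replicate 1 or 3. The 508 shared calls became 234 with median centring, 152 without scaling, 963 among brighter probes and 365 with the replicate block, and 297 to 390 without 1 array, with 338 without treated tubule replicate 3, 320 and 297 without control whole kidney replicate 1 or 2, and 320 without treated whole kidney replicate 3. The 12 shared named changes kept their call in tubules in 252 of 252 alternative fits and in whole kidneys in 248 of 252, the exceptions being Gc. Over 98 named genes 2050 alternative interactions gave 44 that passed the threshold. A move of over 1 SE was counted only in genes with an unadjusted p of 0.05 or more, and 9 were counted. Moves of that size in the other genes were not counted. Acsm2, for one, had -1.941 without scaling against -1.472 ± 0.42 in the main fit. The sign changed in 46 alternatives, in 17 genes with an unadjusted p of 0.05 or more. These were judged by size, a rule set after they were seen. No background measure limits what dim probes show.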
